A study of Mus musculus with 13 samples.

Results

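The genes described here are 10 chaperones, folding enzymes and stress regulators of the endoplasmic reticulum (ER): Hspa5, Hsp90b1, Calr, Hyou1, Pdia4, Pdia6, Sdf2l1, Xbp1, Dnajb9 and Herpud1. They were chosen by name, and every probe of the array annotated to one of them was taken. Of the 10 genes, 9 had a probe among the 25697 probes of the array, 8 passed a filter on dim probes that used all 13 arrays regardless of group, and these 8 belong to the 8975 genes tested. The expression of Sdf2l1 was not analysed here.

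The material was total RNA from proximal small intestine, taken from 13 C57BL/6J males, 1 bead array (Illumina's MouseRef-8 v2.0) per mouse, each labelled as a biological replicate. The 5 ezetimibe mice ate lab chow with 0.005% ezetimibe, an inhibitor of intestinal cholesterol absorption that binds the sterol uptake protein NPC1L1. The 8 control mice ate regular chow without it and are of the same strain and sex. No age or length of treatment is stated in the labels.

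Newly made membrane and secreted proteins fold in the ER with the help of chaperones and of enzymes that form disulfide bonds. When unfolded protein builds up there, the sensors IRE1, PERK and ATF6 start the unfolded protein response (UPR), in which the transcription factors XBP1 and ATF6 raise the genes of chaperones and of ER-associated degradation. Cells that secrete much protein depend on this pathway, among them the Paneth, goblet and plasma cells of the intestine and the acinar cells of the neighbouring pancreas.

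ATF6 and XBP1 act through short promoter elements, which are shown because they are the known entry point of the UPR at these genes. Promoters of 300 bases (250 before and 50 after the annotated start; RefSeq, build GRCm38.p6) were at hand for 9 of the 10 genes, Hyou1 being the one without. Searched on both strands, the ER stress element ERSE (CCAAT and CCACG with any 9 bases between them) stood in 4 of these 9 promoters, against 39 of all 32851 promoters (0.119%). The related element ERSE-II (ATTGG and CCACG with any 1 base between them) stood in 1 of the 9, that of Herpud1, against 12 of all promoters (0.0365%). No promoter of the 9 held TGACGTGG, the core of the UPR element, which stood in 222 of all promoters (0.676%). The 3 motifs were searched separately. The genes were chosen as known parts of this pathway, so these shares partly follow from the choice and test no enrichment. Each line gives a gene, the interval and strand of the gene, and the element in capitals with 20 bases on either side, 5′ to 3′ along the gene.
Hspa5, chr2:34772005-34772063 (+): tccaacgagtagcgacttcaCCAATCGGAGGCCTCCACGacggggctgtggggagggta
Calr, chr8:84847055-84847113 (-): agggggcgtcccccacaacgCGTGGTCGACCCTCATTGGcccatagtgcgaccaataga
Hsp90b1, chr10:86705618-86705676 (-): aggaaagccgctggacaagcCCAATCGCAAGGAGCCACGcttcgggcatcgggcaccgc
Hsp90b1, chr10:86705513-86705571 (-): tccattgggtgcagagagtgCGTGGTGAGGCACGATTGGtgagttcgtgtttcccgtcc
Pdia6, chr12:17266471-17266529 (+): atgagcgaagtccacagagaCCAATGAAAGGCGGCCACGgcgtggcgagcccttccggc
Herpud1, chr8:94386357-94386407 (+): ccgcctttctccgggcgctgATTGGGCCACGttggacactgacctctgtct
In Calr and in the second Hsp90b1 interval the element runs on the strand opposite to the gene, so its reverse complement is in capitals. A match of letters describes the sequence only and says nothing about binding in these mice.

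The arrays lay on 2 slides, with 2 ezetimibe and 4 control arrays on slide 1 and 3 ezetimibe and 4 control arrays on slide 2, and slide was a term of every model. Levels below are background-corrected, quantile-normalized log2 intensities with the slide difference taken out, and levels of different probes are not comparable. Between 11085 and 12380 probes were detected per array, and the number of arrays limits the precision. Enterocyte markers averaged between 12.9 and 13.3 on every array. Markers of the exocrine pancreas varied widely, and their part is taken up below.

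The first comparison asked which intestinal transcripts differ under ezetimibe. None of the 8 tested ER genes passed the test: 0 of 8 passed an adjusted p under 0.10 in limma, against 30 of 11887 probes in all (0.252%), of which 28 were higher (0.236%) and 2 lower (0.0168%). Their differences, ezetimibe minus control on the log2 scale, ran from -0.31 for Calr to 0.15 for Hspa5. Of the 8, 6 lay below 0 and 2 above, where 5985 of all 11887 probes lay below 0. Hspa5, above 0, and Pdia6, below 0, had probes near background. The median of the 8 was -0.05, against -0.0010 over all tested probes. With median scaling in place of quantiles the median of the 8 turned to 0.05, where that of all probes stood at 0.09, and without ezetimibe array 3 it was 0.00547. At an unadjusted p under 0.05, 1 of 8 genes passed, against 735 probes (6.18%). In whole tissue, fewer cells of a type and less RNA per cell cannot be told apart.

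**Figure D1:**
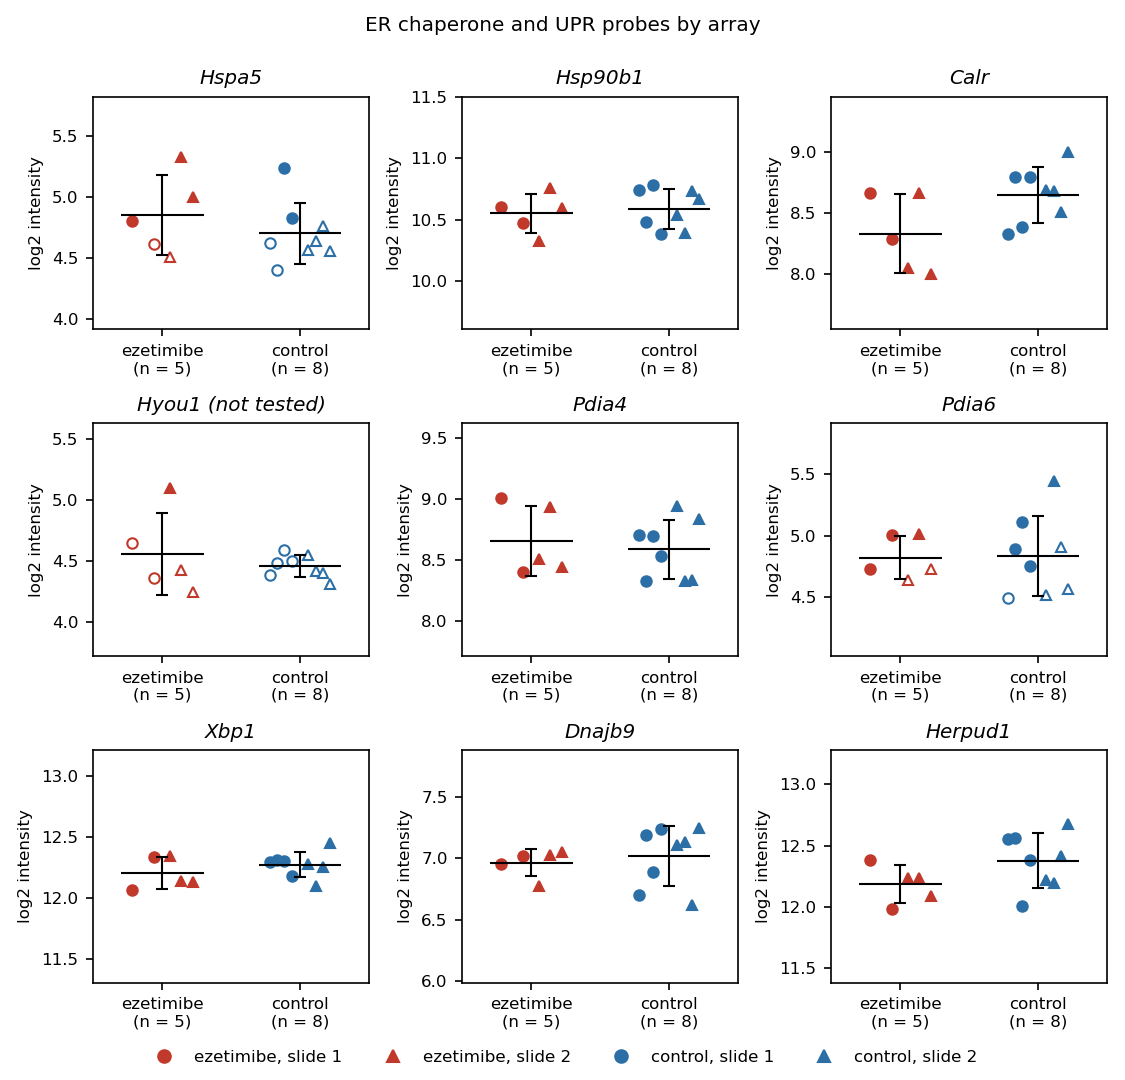
Slide-adjusted log2 intensity of 9 ER genes on each array (Hyou1, not tested, without slide adjustment), ezetimibe left and control right. Filled symbols mark arrays where the probe was detected (detection p under 0.05) and open symbols those where it was not, circles slide 1 and triangles slide 2. Lines and bars are the mean and SD (n = 5 and 8), every panel spans the same log2 range, and the groups overlap in every panel.

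Among the chaperones, Hspa5 encodes BiP, the ER member of the HSP70 family, which binds unfolded chains and holds the UPR sensors inactive. Its probe read 4.80, 4.61, 4.51, 5.33 and 5.00 in the 5 ezetimibe mice, against 4.4 to 5.23 with a median of 4.63 in the 8 control mice. This probe, the only one for the gene, lay close to background: it was detected on 3 of 5 ezetimibe and 2 of 8 control arrays. The groups overlapped, and the difference was 0.15 ± 0.16 (SE; adjusted p = 0.926). A probe this close to background gives little room to show a lower level and does not bound a fold in either direction. Which transcripts it binds was not checked, so its low reading does not show that Hspa5 is little expressed.

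Hsp90b1 encodes GRP94, the ER form of HSP90. Its levels were 10.60, 10.47, 10.33, 10.76 and 10.59 under ezetimibe, against 10.38 to 10.78 in control mice. Apart from one ezetimibe array just below the lowest control, the ezetimibe values lay inside the control range. The difference was -0.04 ± 0.09 (SE; adjusted p = 0.974), and its 95% interval spans a fold of 0.848 to 1.12.

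Calr encodes calreticulin, a calcium-binding lectin that retains glycoproteins until they are folded. It read 8.66, 8.29, 8.05, 8.67 and 8.00 in ezetimibe mice, against 8.33 to 9.0 with a median of 8.68 in control mice. Of the ezetimibe arrays, 3 lay below the lowest control array and 2 near the control median. The mean was 8.33 ± 0.32 under ezetimibe and 8.65 ± 0.23 in controls (SD, n = 5 and 8). The difference was -0.31 ± 0.14 (SE; unadjusted p = 0.0428, adjusted p = 0.781). Taken within each slide, ezetimibe arrays differed from control arrays by -0.10 (slide 1) and -0.48 (slide 2), and the interaction with slide was -0.38 ± 0.28 (SE; adjusted p = 0.9998). Calr was the one gene of the 8 with an unadjusted p under 0.05, and it did not pass the correction over all probes. The count of such genes hung on single arrays: it was 0 without control 2, 4, 5, 6 or 8 or without ezetimibe 2, 3 or 5, and 2 without control 3 or ezetimibe 1.

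Hyou1 encodes GRP170, a large chaperone that also exchanges the nucleotide of BiP. Its probe was above background on 1 of 13 arrays, an ezetimibe array that read 5.10, and was not tested. The other ezetimibe arrays read 4.65, 4.36, 4.43 and 4.25, against 4.32 to 4.59 in control mice, all without detection. No fold is given for it.

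Pdia4 and Pdia6 encode ERp72 and P5, protein disulfide isomerases that form and rearrange disulfide bonds. Pdia4 read 9.01, 8.40, 8.51, 8.93 and 8.44 under ezetimibe, against 8.33 to 8.94 with a median of 8.62 in control mice, a difference of 0.07 ± 0.14 (SE; adjusted p = 0.969). Pdia6 read 4.73, 5.00, 4.64, 5.01 and 4.73 under ezetimibe, against 4.49 to 5.44 in control mice, a difference of -0.01 ± 0.16 (SE; adjusted p = 0.997). Both sets of values interleave. The Pdia6 probe was near background, detected on 3 of 5 ezetimibe and 4 of 8 control arrays. Which transcripts it binds was not checked either.

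Xbp1 encodes the transcription factor whose messenger is spliced by IRE1. The probe measured the sum of whatever forms it binds, and no file separates spliced from unspliced transcript. Xbp1 read 12.07, 12.34, 12.35, 12.14 and 12.14 in ezetimibe mice, against 12.10 to 12.45 in control mice. The difference was -0.07 ± 0.07 (SE; adjusted p = 0.926) with a fold interval of 0.859 to 1.06, the narrowest of the 8 genes. Its spread between mice, an SD of 0.118 after slide and group, was lower than that of all but 8.24% of tested probes.

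Dnajb9 encodes ERdj4, a co-chaperone of BiP and a target of XBP1. All 5 ezetimibe values, from 6.78 to 7.05, lay inside the control range of 6.62 to 7.25, and the difference was -0.05 ± 0.13 (SE; adjusted p = 0.974). Herpud1 encodes HERP, a membrane protein of the ER-associated degradation complex, and is the one gene of the set with 2 probes. Its brighter probe read 12.38, 11.98, 12.23, 12.24 and 12.09 under ezetimibe, against 12.01 to 12.68 with a median of 12.40 in control mice. The difference was -0.19 ± 0.11 (SE; adjusted p = 0.840) for that probe and -0.13 ± 0.12 (SE; adjusted p = 0.912) for the other. After slide and group were taken out, both Herpud1 probes followed each other with r = 0.944 over 13 arrays.

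Across the 6 genes detected on all 13 arrays, the 95% intervals of the fold reached down to 0.653 (Calr) and up to 1.29 (Pdia4). The probes of Hspa5 and Pdia6 lay too close to background to bound a fold. No gene of the 8 had all ezetimibe arrays on one side of all control arrays on both slides, against 94 of 11887 probes (0.791%). A test of whether the ezetimibe difference itself differed between slides passed for 0 of 8 genes at an adjusted p under 0.10 (0% of all probes) and for 0 at an unadjusted p under 0.05 (317 probes, 2.67%) in limma.

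Some of these probes differed more between slides than between diets. Lower on slide 2 were 3 of 8 genes and higher none, against 2912 probes lower on slide 2 (24.5%) and 6330 that differed either way (53.3%). Without slide adjustment, Dnajb9 had a range of 6.15 to 6.78 on slide 2, against 7.25 to 7.79 on slide 1, a difference of -1.01 ± 0.13 (SE; adjusted p = 1.60655e-05). Hsp90b1 lay between 9.90 and 10.33 on slide 2 and between 10.87 and 11.27 on slide 1, a difference of -0.91 ± 0.09 (SE; adjusted p = 2.38596e-06). For both genes the slides did not overlap. Pdia4 differed by -0.31 ± 0.14 (SE; adjusted p = 0.0775), and its slides overlapped. The dimmer Herpud1 probe, which does not stand for its gene in the count, was lower too, at -0.33 ± 0.12 (SE; adjusted p = 0.0289). Both slides held both groups, and the slide term takes these shifts out.

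Markers of other cell types were set beside these values. The 15 exocrine pancreas markers averaged from 5.81 to 12.8 in ezetimibe mice and from 5.63 to 11.9 in control mice, with 0 of 15 past the threshold for the diet. The 6 Paneth cell markers averaged from 8.44 to 9.35 under ezetimibe and from 8.74 to 9.54 in control mice. All 6 had differences below 0, with a median of -0.29, but 0 of 6 passed. The 4 plasma cell markers averaged from 6.20 to 6.81 under ezetimibe and from 5.61 to 6.81 in control mice, with 0 of 4 past the threshold. All 4 had differences above 0, with a median of 0.14. The 3 gastric and pyloric markers averaged from 5.34 to 9.52 under ezetimibe and from 5.99 to 9.46 in control mice, all 3 with differences above 0 and 0 of 3 past the threshold. The 5 goblet cell markers averaged from 11.2 to 11.5 under ezetimibe and from 11.3 to 11.4 in control mice. Of these, 2 had differences above 0 and 3 below, with a median of -0.012, and 0 of 5 passed. Over all tested probes, 30 of 11887 passed for the diet (0.252%). Derl3 and Creb3l1 count here as plasma and goblet cell markers and again in the ER lists below. The part of any of these cell types in the Calr values was not tested.

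**Figure D2:**
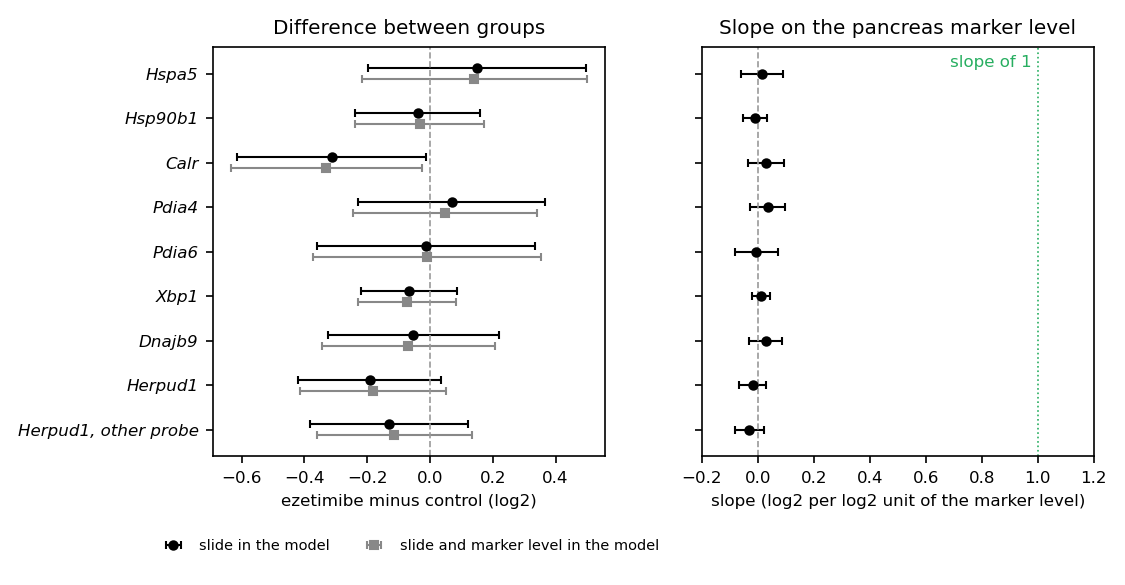
Left, the ezetimibe minus control difference (log2) of each tested probe with its 95% interval, with slide in the model (circles) and with slide and pancreas marker level in the model (squares). Right, the slope of each probe on the pancreas marker level (log2 per log2 unit) with its 95% interval; the dotted line marks a slope of 1. Calr is the gene whose interval on the left stays below 0. No interval on the right excludes 0, and a slope of 1 is no yardstick for genes also transcribed in the intestine.

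The second comparison asked whether these genes vary with the amount of pancreas transcripts on an array, since acinar cells are rich in ER. The pancreas marker level is the mean centred log2 level of 15 acinar genes, among them Cel (carboxyl ester lipase), Cpa1 (carboxypeptidase A1) and Pnlip (pancreatic lipase). It ran from -3.33 on a control array to 3.85 on an ezetimibe array, a span of 7.18 log2 units, or 145-fold. Cel alone read 5.70, 11.08, 10.11, 13.11 and 5.19 in the 5 ezetimibe mice, against 5.20 to 11.74 with a median of 7.61 in the 8 control mice. High and low arrays occurred in both groups and on both slides.

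None of the 8 ER genes passed the test of a relation with that level. The probes of Hspa5 and Pdia6 lay near background and show little here, so the result rests mainly on the 6 genes detected on all arrays. With slide and group in the limma model, 49 probes passed an adjusted p under 0.10 (0.412%), 48 of them higher with the level, and 0 of 8 ER genes did. At an unadjusted p under 0.05 none of the 8 passed either, against 512 probes (4.31%). Their slopes ran from -0.019 for Herpud1 to 0.036 for Pdia4 in log2 per log2 unit of the level, with a median of 0.013. Cel had a slope of 1.11 ± 0.02 (SE), but Cel is one of the genes that define the level. The highest upper bound of a 95% interval among the 8 was 0.0973, that of Pdia4.

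Put over the whole span of the level, Pdia4 changed by a fitted 0.26 log2 units (95% interval -0.19 to 0.70) and Calr by 0.21 (-0.25 to 0.67). Hsp90b1 changed by -0.08 (-0.39 to 0.23) and Xbp1 by 0.08 (-0.15 to 0.32). For Cel, which helps define the level, the same figure was 7.96, which is no yardstick for genes also transcribed in the intestine. None of the 8 intervals excludes 0. Herpud1 gave -0.14 (-0.49 to 0.21) with the brighter probe.

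**Figure D3:**
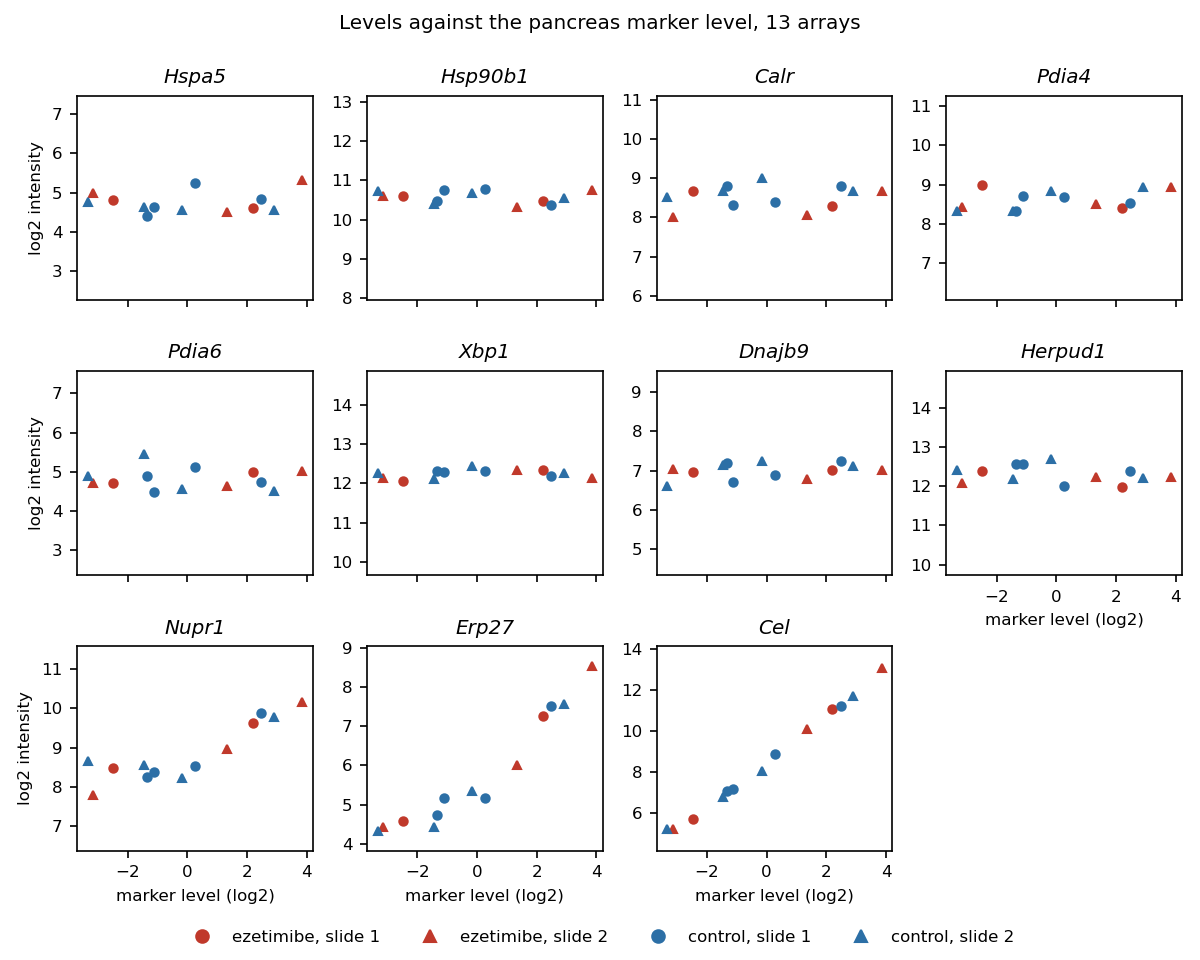
Slide-adjusted log2 intensity against the pancreas marker level (log2, slide means taken out) on 13 arrays, for the 8 tested ER genes (brighter Herpud1 probe) and for Nupr1, Erp27 and Cel. All panels span the same log2 range except Cel, whose range is wider. The slopes of the ER genes did not pass the threshold, those of Hspa5 and Pdia6 from probes near background, while Nupr1, Erp27 and Cel climb with the level.

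Correlations per array gave the same picture. Over 13 arrays, Pearson's r of the 9 tested probes of these genes with the level ran from -0.361 (the dimmer Herpud1 probe) to 0.351 (Pdia4), and Spearman's rho from -0.313 to 0.412. In a two-sided permutation test within slides, the smallest p among them was 0.196 for r and 0.192 for rho, and after adjustment over 11887 probes they were 0.9993 and 1. By that test 40 probes passed for r (0.337%) and 32 for rho (0.269%), none of them a probe of these genes. With Cel alone in place of the 15 markers, r ran from -0.289 for Herpud1 to 0.332 for Pdia4. Without the 2 arrays farthest from the median level, r ran from -0.350 to 0.460. In the 8 control arrays alone it ran from -0.374 to 0.673, with a smallest exact permutation p of 0.134.

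Pdia4 was the one gene of the 8 whose relation to the level differed between slides at an unadjusted p under 0.05. On slide 2, r was 0.824 and rho 0.821 over the 7 arrays (exact permutation p = 0.0435 and 0.0341). On slide 1, r was -0.539 and rho -0.371 over the 6 arrays (exact permutation p = 0.276 and 0.497). The level by slide term of limma, added after seeing the data, was 0.145 ± 0.053 (SE; unadjusted p = 0.0162, adjusted p = 0.880), where 636 probes (5.35%) had an unadjusted p under 0.05. So it did not pass the correction. A term for a different slope in ezetimibe and control mice passed for 0 of 8 genes (0% of all probes), and for 0 without adjustment (318 probes, 2.68%).

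Holding the marker level in the model left the ezetimibe comparison as it was: 31 probes passed (0.261%) and 0 of 8 ER genes. Calr stood at -0.33 ± 0.14 (SE; adjusted p = 0.852), Herpud1 at -0.18 ± 0.11 (SE; adjusted p = 0.902) and Pdia4 at 0.05 ± 0.14 (SE; adjusted p = 0.990). Without the array highest in the marker level of each group (ezetimibe 4 and control 5; left out after seeing the data), again 0 of 8 passed in either comparison.

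Other ER and stress genes were read from the same fits, and 0 of 85 tested genes in 7 lists passed for the diet in either direction, where 30 of all 11887 probes did (0.252%). The lists were chosen with earlier results of these data known. Of 13 other folding genes, 7 had differences above 0 and 6 below. Fkbp2, an ER prolyl isomerase, stood at -0.25 ± 0.10 (SE; adjusted p = 0.732), and Tmx1, a membrane-bound thioredoxin, at 0.42 ± 0.26 (SE; adjusted p = 0.854). Of 10 genes of ER-associated degradation, 4 lay above 0 and 6 below, with Os9, a lectin of that pathway, at -0.10 ± 0.07 and Selenos, a selenoprotein of the retrotranslocation complex, at -0.06 ± 0.08 (SE).

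The 6 tested sensors and proteases had a median of -0.07. Atf6b, a relative of ATF6, stood at -0.12 ± 0.12 (SE; adjusted p = 0.919). Mbtps1 encodes the site-1 protease that cleaves both ATF6 and the sterol regulator SREBP, and stood at -0.07 ± 0.08 (SE; adjusted p = 0.933). Mbtps2, the site-2 protease, did not pass the filter on dim probes.

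The 14 targets of PERK and ATF4, which respond to translation block and amino acid shortage, had the highest median of the 7 lists, 0.15, with 10 above 0 and 4 below. Asns, asparagine synthetase, stood at 0.24 ± 0.14 (SE; adjusted p = 0.841) and Ddit3, which encodes CHOP, at -0.23 ± 0.13 (SE; adjusted p = 0.841). In the 20 genes of the translocon and signal peptidase the median was -0.03. Sec11c, a catalytic subunit of the signal peptidase, stood at 0.50 ± 0.20 (SE; adjusted p = 0.736) and Srp9, of the signal recognition particle, at -0.13 ± 0.08 (SE; adjusted p = 0.846).

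The 14 genes of ER to Golgi transport had a median of -0.07. Kdelr3, a receptor that returns escaped chaperones to the ER, stood at -0.47 ± 0.18 (SE; adjusted p = 0.734), and Tmed2, a cargo receptor, at -0.27 ± 0.17 (SE; adjusted p = 0.861). The Tmed2 probe was near background, detected on 8 of 13 arrays. The 8 heat shock genes from outside the ER, 6 cytosolic and the mitochondrial Hspd1 and Hspe1, had a median of -0.09. Hspa8, the constitutive cytosolic chaperone, stood at -0.26 ± 0.22 and Hspb1, a small heat shock protein, at -0.21 ± 0.14 (SE; adjusted p = 0.909 and 0.861).

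**Figure D4:**
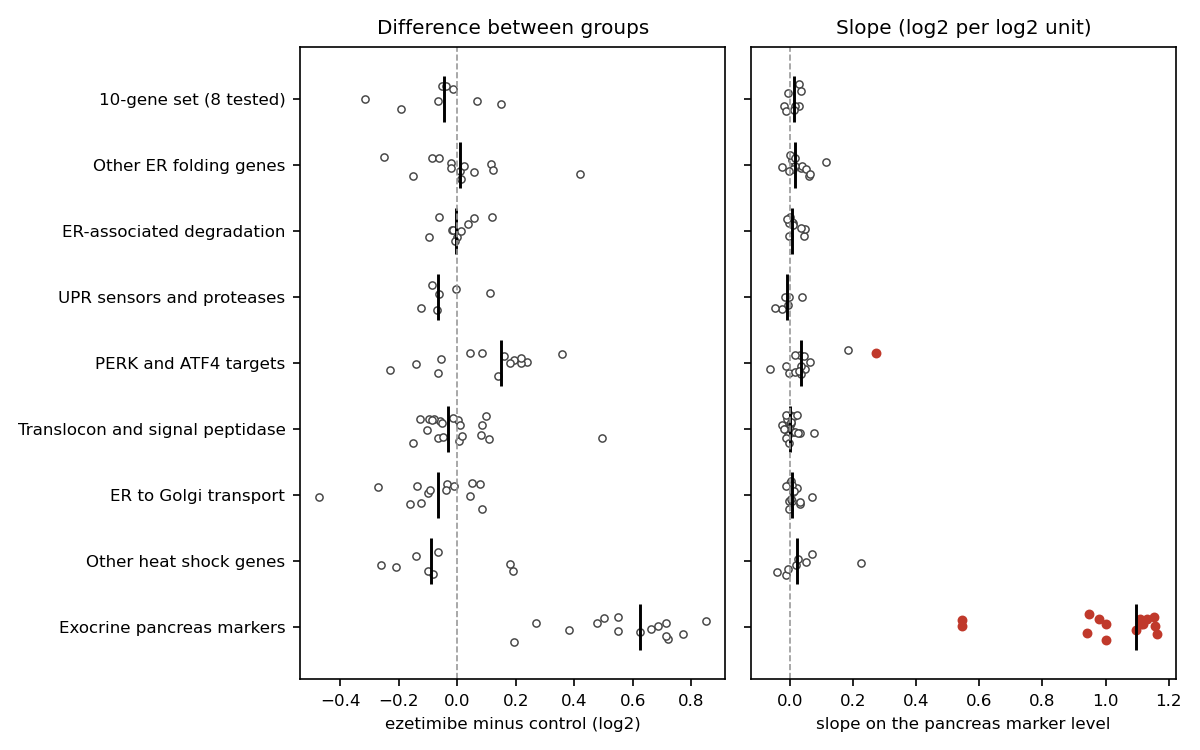
Each point is 1 gene of a list: left, the ezetimibe minus control difference (log2), right, the slope on the pancreas marker level (log2 per log2 unit). Vertical bars are list medians, and red points passed an adjusted p under 0.10. On the right, Nupr1 is the red point outside the pancreas markers, which define the level, and on the left no point is red.

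Against the pancreas marker level, 1 of the 85 genes passed, where 49 of all 11887 probes did (0.412%). Nupr1, a small stress-induced chromatin protein in the PERK and ATF4 list, had a slope of 0.27 ± 0.04 (SE; adjusted p = 0.00249). Its levels were 8.49, 9.63, 8.97, 10.2 and 7.80 under ezetimibe, against 8.24 to 9.89 with a median of 8.55 in control mice, and the difference between groups was 0.22 ± 0.38 (SE; adjusted p = 0.960). The highest Nupr1 values stood on the arrays highest in the pancreas markers. Without the highest array of each group the slope was 0.228 with an adjusted p of 0.368, and on slide 2 alone 0.263 with an adjusted p of 0.111. By the permutation test its r was 0.877 (p = 0.00053, adjusted p = 0.131).

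Fkbp11, a prolyl isomerase of secretory cells, had a slope of 0.11 ± 0.03 (SE; adjusted p = 0.394). Of 26 alternative settings, it passed only with median scaling (0.143, adjusted p = 0.0676) and without ezetimibe array 1 (0.141, adjusted p = 0.0934). Its slope ran from 0.0278 to 0.158 across the settings. Others with the smallest p of their list did not pass: Pdia3 at 0.05 ± 0.03, Sel1l at 0.04 ± 0.02, Derl2 at 0.04 ± 0.02, Ern2 at -0.05 ± 0.03 and Creb3l2 at 0.04 ± 0.03. The same holds for Srp72 at 0.08 ± 0.03, Srp9 at -0.03 ± 0.02, Kdelr3 at 0.07 ± 0.04, Lman1 at 0.03 ± 0.03, Dnajb1 at 0.07 ± 0.03 and Hspb1 at 0.05 ± 0.03 (all SE).

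Outside all of these lists, a pair of secretory genes passed against the level and are named after their values were seen. Erp27, a protein disulfide isomerase relative of the pancreatic ER, had a slope of 0.57 ± 0.05 (SE; adjusted p = 2.2972e-06). Bhlha15 encodes MIST1, a transcription factor of acinar and other secretory cells. Both of its probes passed in limma, with slopes of 0.22 ± 0.03 (SE; adjusted p = 0.00138) and 0.19 ± 0.04 (SE; adjusted p = 0.0160). By the permutation test the latter probe had an r of 0.866 and did not pass (adjusted p = 0.230). Erp27 passed that test with an r of 0.954 (adjusted p = 0.00566). The Erp27 probe was detected on 3 of 5 ezetimibe and 6 of 8 control arrays.

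The 8 genes were also compared with each other. Of their 28 pairs, 15 had an r above 0 over 13 arrays with slide and group means taken out, with a median of 0.0302. Among the 6 genes detected on all arrays, 10 of 15 pairs were above 0, with a median of 0.0874, from -0.403 (Dnajb9 and Hsp90b1) to 0.618 (Dnajb9 and Calr). Of the 13 pairs with Hspa5 or Pdia6, whose probes were near background, 5 were above 0. Set against the mean of the other 7 genes, r ran from -0.223 for Xbp1 to 0.555 for Calr. These values describe 13 arrays on 2 slides that share their normalization.

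The 10 other genes whose levels were most like the mean of all 8, Hspa5 and Pdia6 included, by Pearson's r over 13 arrays, were Shisa5 (0.887), Rcan1 (0.870), Arl4a (0.852), Aggf1 (0.851), LOC100048480 (0.841), Dmwd (0.840), Dhrs4 (0.836), Tmed4 (0.835), Gosr2 (0.832) and Yrdc (0.830). They were picked as the highest r among the tested genes outside the 8 and the pancreas markers. Their r is therefore high by selection, and no test was made. The 8 genes themselves had r from -0.0812 (Xbp1) to 0.795 (Calr) with the same mean. Each is a part of that mean, which raises these r, and against the mean of the other 7 Calr had 0.555. The mean itself ran from -0.18 (ezetimibe 3) to 0.16 (ezetimibe 4) in ezetimibe mice and from -0.05 to 0.15 in control mice, around each slide's own mean.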

How the data were processed

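Per the file headers, the deposited table holds, per probe, each array's average bead signal, which is a linear, unnormalized intensity, together with its detection p-value. A second deposited table holds the authors' processed intensity values. The series' design text names quantile normalization, Combat for batches, a fold filter and a false discovery rate of 10%. Neither the export software nor the genome build is named in those sources.

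Signals went through limma's neqc (limma 3.58.1, R 4.3.3), which uses detection p-values for the normexp background, an offset of 16, quantiles and log2. Of 25697 probes, 11887 (46.3%) were tested, those detected (p under 0.05) on 5 or more of 13 arrays. Each probe's linear model held slide and group (lmFit, then eBayes with its trend option), and p-values were adjusted by Benjamini-Hochberg over all tested probes with a threshold of 0.10. For genes with more than 1 tested probe the brightest stands for the gene. Permutation tests drew 100000 permutations within slides, or all of them where they were fewer, with numpy 2.4.6. The models and the permutation test were tested on simulated data.

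Symbols were updated through the RefSeq gene table of GRCm38.p6: 20439 probes needed no change, 4135 took a new name through a synonym and 1 through a listed older symbol, 1103 stayed as in the file and 19 held dates. Replicate numbers did not pair the arrays. The members and lists were chosen with earlier results of these data known. Named are all members, per list up to 3 genes past the threshold or else the 2 with the smallest p, Mbtps1, Mbtps2, the pancreas markers and the 10 genes most like the members' mean. The alternatives covered background correction, normalization, source of values, filters, slide, position, eBayes settings, array weights, pairing, the threshold, probes of a gene, Cel alone as the level, and leaving out arrays.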

Additional observations from a re-analysis of the deposited data

How the results depend on the processing

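No ER gene of the 8 passed the threshold under any alternative run, for the diet, for the pancreas marker level or for the diet with the level held, and the smallest adjusted p they reached were 0.428, 0.577 and 0.291. Of 676 log2 differences recomputed under 31 alternatives, 25 turned sign, and of 206 differences with the level held, 16; of 542 slopes 21 and of 206 correlations 15 turned sign. All of these belong to values that did not pass. The cause was not tested. The number of probes past the threshold for the diet, 30, became 17 without a slide term, 6 on slide 1 alone and 10 on slide 2 alone, where fewer arrays enter. It was 23 with the replicate number as a block, and leaving out 1 array gave 20 to 45. For the marker level, 49 became 18 with detection p under 0.01 on all arrays, where fewer probes are tested, and 43 to 52 without 1 array. The stricter detection filter also drops Hspa5 and Pdia6. It drops the probes of several pancreas markers too, Cel and Cpa1 among them, so the level was rebuilt there from the markers left.

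With median scaling, where the median of all tested probes was 0.0884, differences were 0.0166 for Dnajb9, 0.117 for Hsp90b1, 0.0819 for Xbp1, 0.0516 for Mbtps1, 0.0465 for Os9 and 0.0911 for Selenos. With the level held they were 0.0928 for Hsp90b1 and 0.0447 for Xbp1. Slopes under that scaling were 0.0207 for Herpud1, 0.0356 for Hsp90b1, 0.00278 for Pdia6 and 0.0134 for Srp9, and correlations 0.251 for Herpud1, 0.446 for Hsp90b1 and 0.0255 for Pdia6.

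In the paired fit with the replicate block, differences were 0.00533 for Dnajb9, -0.0415 for Pdia4 and 0.188 for Pdia6. Same-numbered ezetimibe and control arrays had deviations that correlated at 0.116, -0.131, 0.0474, 0.365 and -0.422, so the numbers do not pair the arrays. Mbtps1 stood at 0.0477 as the mean over its probes. For Pdia6, whose difference was -0.01, the value was 8.61e-05 with array weights, 0.000369 with the deposited processed values, 0.000353 without background correction and 0.00308 with an offset of 50. With the level held it was 0.000491, 0.00192 and 0.00599 under the last 3 of these.

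On slide 1 alone, differences were -0.0631 for Hspa5, 0.0552 for Pdia6 and 0.0598 for Selenos, and with the level held -0.0581 for Hspa5 and 0.064 for Pdia6. Slopes there were -0.0207 for Calr, -0.0331 for Dnajb1, -0.000442 for Hspb1, -0.0372 for Pdia3, -0.0638 for Pdia4 and 0.041 for Pdia6, and correlations -0.164 for Calr, -0.539 for Pdia4 and 0.363 for Pdia6. On slide 2 alone the Herpud1 slope was 0.00399 and the Pdia4 difference with the level held -0.085. Without a slide term Hsp90b1 had a slope of 0.0228 and a correlation of 0.0951.

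Without the 2 arrays farthest in marker level, slopes were -0.000334 for Calr and -0.0227 for Hspa5, the Hspa5 correlation -0.21 and the Pdia4 difference with the level held -0.0302. Without the highest array of each group, a setting chosen after seeing the data, slopes were -0.0238 for Hspa5, -0.000218 for Lman1, -0.0142 for Pdia4 and 0.000505 for Pdia6, and correlations -0.0252 for Calr, -0.19 for Hspa5 and -0.115 for Pdia4.

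Leaving out 1 array at a time, differences ranged from -0.0913 to 0.0165 for Hsp90b1, -0.0418 to 0.149 for Pdia4 and -0.0711 to 0.095 for Pdia6. With the level held the ranges were -0.102 to 0.0188, -0.145 to 0.149 and -0.0866 to 0.0922 for the same genes. The median difference of the 8 ranged from -0.0702 to 0.00547. At an unadjusted p under 0.05, 1 of 8 passed for the diet, against 0 with median scaling, with the deposited processed values, without a slide term, on slide 1 alone and with eBayes without a trend. Slopes ranged from -0.0253 to 0.032 for Hspa5 and -0.0256 to 0.0155 for Pdia6, and correlations from -0.0745 to 0.285 for Calr, -0.244 to 0.295 for Hspa5 and -0.191 to 0.113 for Pdia6. Signals of Hspa5, Pdia6 and Hyou1 near background limit what those probes can show.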

Other observations

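Of the 46 genes whose level followed the pancreas markers, 31 were outside the marker list, and 7 of these are named here, chosen after their values were seen. Pla2g1b, pancreatic phospholipase A2, had a slope of 1.09 ± 0.03, Rnase1, pancreatic ribonuclease, 0.83 ± 0.03, Cela1, an elastase, 0.81 ± 0.03, and Cuzd1, a zymogen granule protein, 0.78 ± 0.05 (SE). Rbpjl, a subunit of the acinar transcription complex PTF1, had a slope of 0.48 ± 0.06, and the amino acid transporter Slc38a5 0.48 ± 0.05 (SE). The 1 probe that was lower with the level was that of Ethe1, a mitochondrial sulfur dioxygenase, at -0.10 ± 0.02 (SE; adjusted p = 0.0392). Of the islet markers, 2 were tested, with slopes of 0.30 and 0.56, and neither passed the threshold.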
